A study of Mus musculus with 6 samples.

Results

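The genes of the major histocompatibility complex (MHC) and of antigen presentation were examined in inguinal white fat (iWAT, inguinal white adipose tissue) of Zip13-KO and WT mice. Members were the genes with a symbol beginning with H2-, together with B2m, Tap1, Tap2, Tapbp, Tapbpl, Ciita, Nlrc5, Cd74, Cd1d1, Mr1, Fcgrt, Erap1, Cd80 and Cd86. A gene counted as measured when at least 1 probe carried the accession of one of its RefSeq transcripts, and 49 of 21368 genes named in this way were members, with 62 probes. Of these 49 genes, 32 belonged to the class I arm (heavy chains, B2m, peptide supply and Nlrc5), 11 to the class II arm (chains, invariant chain and Ciita) and 6 to neither. A further 15 genes that the rule covers had no such probe and were not analysed here, H2-Ea, H2-Q6, H2-Q9, H2-T18, H2-T22 and H2-M2 among them. Genes were tested where a probe exceeded background clearly, by the scanner software's own flag, on the 3 WT or on the 3 Zip13-KO arrays, which 41 members did. H2-M1, H2-M10.1, H2-M10.2, H2-M10.3, H2-M10.4, H2-M10.6, H2-M5 and H2-Q1 did not pass and were not tested.

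Zip13 is the zinc transporter encoded by Slc39a13. The knockout is a whole-body deletion, made in embryonic stem cells by putting a Neo cassette in place of internal exons of the gene, and the controls were WT mice. Both genotypes were on a C57BL/6J background, received powdered food and were 10 weeks old, while sex is not given for the single arrays. Total RNA of the whole fat depot from 3 WT and 3 Zip13-KO samples was hybridized to 1-colour Agilent arrays, on which the brightness of a probe stands for the amount of its transcript. All levels below are normalized log2 signals, all differences are Zip13-KO minus WT on that log2 scale, and levels of different probes cannot be compared with each other. Nothing in the labels ties the replicates to separate animals, so p-values measure only the spread between these samples.

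Class I molecules consist of a heavy chain and β2-microglobulin, are made by nearly all cells, and show peptides from the cytosol that the TAP transporter brings into the endoplasmic reticulum. Class II molecules consist of an α and a β chain, are made mainly by dendritic cells, macrophages and B cells, and show peptides taken up from outside, with the invariant chain guarding the groove until DM exchanges it for peptide. In adipose tissue, macrophages are the best-known class II-bearing cells, and CIITA and NLRC5 are the transactivators of the class II and the class I genes.

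The 6 arrays were on 1 slide and in 1 scan, no spot was saturated, and 58.8% to 63.2% of non-control spots were well above background. Slc39a13, the targeted gene, had levels of 11.29, 10.87 and 10.72 in the WT arrays and of 6.76, 6.66 and 6.47 in the Zip13-KO arrays. It was 20.1-fold lower in Zip13-KO (difference -4.33, SE 0.168, limma adjusted p = 0.00128), and the position of the probe relative to the deleted exons was not examined. WT replicate 2 stood apart among the members: it was the highest WT array for 20 of 24 class I genes and 7 of 11 class II genes, against 4256 of all 15306 genes tested. The 3 WT arrays and Zip13-KO replicate 1 shared a position number on the slide and Zip13-KO replicates 2 and 3 another, so results without WT replicate 2 and by position are given beside the counts below.

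All 11 class II genes were lower in Zip13-KO by their means, and for each of them every Zip13-KO array was below every WT array. Over all genes tested, the arrays were apart in this direction for 25.9%. The changes ran from -0.13 to -0.60 with a median of -0.46, beside a median of -0.00051 over all 15306 genes. With a limma adjusted p under 0.05 and a change beyond 0.58, which is 1.5-fold, 3 of 11 class II genes were called lower and none higher, while 8.38% of all genes were called lower and 10.3% higher. With the same adjusted p and no minimum for the fold, 7 of 11 class II genes were lower, against 15.2% of all genes. The calls past 1.5-fold changed when an array was left out, which also leaves fewer arrays for the test. Class II genes called lower numbered 0 without WT replicate 2 or without Zip13-KO replicate 1. They numbered 1 without WT replicate 3, Zip13-KO replicate 2 or Zip13-KO replicate 3, and 3 without WT replicate 1. The gene called without Zip13-KO replicate 3 was H2-Oa, and without WT replicate 1 H2-Aa was called and Ciita was not. Of all genes, 1282 were called lower with every array, and 767, 784 and 1043 without Zip13-KO replicate 1, 2 and 3. Without WT replicate 1, 2 and 3 the numbers were 1161, 1166 and 1475. The direction did not change, since all 11 class II genes stayed below 0 in each of these fits.

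The class I arm lay nearer to 0. Of the 24 genes tested, 19 were below 0 and 5 above, the median was -0.17, 2 were called lower and 1 higher, and the arrays of the genotypes overlapped for 15. Every Zip13-KO array was below every WT array for 7 class I genes and above for 2, where 25.9% and 29.2% of all genes were so. H2-T3, which was above 0 and apart in the higher direction, was tested only because of its signal on the Zip13-KO arrays. With the filter on all 6 arrays, which leaves H2-T3 out, 19 of 23 class I genes were below 0, with a median of -0.175. Without WT replicate 2 the class I median was -0.05, with 15 of 24 genes below 0, while the class II median was -0.43. The 2 genes called lower make a share of the class I arm close to the 8.38% of all genes.

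**Figure D1:**
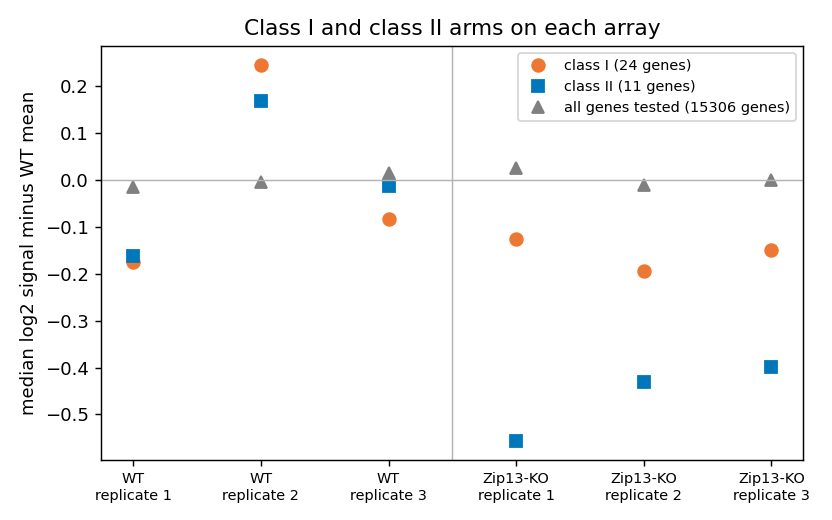
Median over the 24 class I genes (circles), the 11 class II genes (squares) and all 15306 genes tested (triangles) of each array's log2 signal minus the WT mean of the same gene (y axis), for the 6 arrays (x axis). The class II median was between -0.40 and -0.56 on the Zip13-KO arrays, and the class I median was between -0.13 and -0.19 there, with Zip13-KO replicates 1 and 3 inside the range of the WT arrays and replicate 2 just below it.

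Relative to the WT mean of each gene, the class I median was -0.18, 0.25 and -0.08 on the WT arrays and -0.13, -0.19 and -0.15 on the Zip13-KO arrays. The class II median was -0.16, 0.17 and -0.01 on the WT arrays and -0.56, -0.43 and -0.40 on the Zip13-KO arrays. The genotypes were therefore apart for class II and overlapped for class I, where Zip13-KO replicate 2 lay just below the lowest WT array. Class I minus class II was -0.01, 0.08 and -0.07 on the WT arrays and 0.43, 0.24 and 0.25 on the Zip13-KO arrays, and the difference between the fitted medians was 0.28. With heavy chains and B2m alone against the A, E, DM and O chains alone it was 0.34. Position on the slide moved with genotype: when it entered the fit, which then compares Zip13-KO replicate 1 with the 3 WT arrays, no member was called, since 7 genes in all were called lower and none higher. The class medians in that fit were -0.13 for class I and -0.56 for class II, which are the values of Zip13-KO replicate 1 given above. They rest on that 1 array, so the fit cannot show whether the order of the arms holds apart from position.

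An α and a β chain of the same kind, A or E, together form a class II molecule at the cell surface. H2-Aa, the A α chain, had levels of 13.99, 14.74 and 14.27 in WT and of 13.78, 13.60 and 13.85 in Zip13-KO (difference -0.59, SE 0.196, limma adjusted p = 0.0608), so it missed the threshold although the arrays did not overlap, and 5 of the 20 alternatives called it. H2-Ab1, the A β chain, had 16.32, 16.59 and 16.35 in WT and 16.31, 16.27 and 16.29 in Zip13-KO (difference -0.13, 95% interval -0.36 to 0.10, adjusted p = 0.318). The Zip13-KO arrays of H2-Ab1 lay under the WT arrays by only 0.0084, and a further probe with a difference of -0.13 overlapped between the genotypes. H2-Eb1, the E β chain, had 16.25, 16.87 and 16.54 in WT and 16.22, 16.12 and 16.19 in Zip13-KO (difference -0.38, SE 0.159, adjusted p = 0.113). Without WT replicate 2, H2-Eb1 differed by -0.22 and H2-Aa by -0.39. H2-Eb2 differed by -0.34 (adjusted p = 0.0597). None of these 4 chains was called, and H2-Aa had the lowest estimate of them. The E α gene H2-Ea, a pseudogene by the RefSeq annotation, was not measured, so the values of H2-Eb1 and H2-Eb2 do not stand for a surface molecule.

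The DM and DO chains act in the endosome, where DM helps peptide into the class II groove and DO holds DM back. H2-DMb1, a DM β chain, had levels of 13.35, 13.79 and 13.48 in WT and of 12.96, 12.94 and 12.93 in Zip13-KO. It was called lower, by 1.52-fold (difference -0.60, SE 0.123, limma adjusted p = 0.0154), and a gap of 0.40 separated the genotypes. H2-DMa, the DM α chain, had 11.61, 12.26 and 11.97 in WT and 11.33, 11.30 and 11.44 in Zip13-KO and was called lower, by 1.51-fold (difference -0.59, SE 0.167, adjusted p = 0.0389). H2-DMb2, the other DM β chain, had 9.86, 9.69 and 10.05 in WT and 9.33, 9.45 and 9.52 in Zip13-KO (difference -0.43, SE 0.115, adjusted p = 0.0325). The DO chains behaved like H2-DMb2 in that they passed the adjusted p and not the fold. H2-Oa had 11.91, 11.89 and 12.02 in WT and 11.20, 11.51 and 11.54 in Zip13-KO (difference -0.52, SE 0.114, adjusted p = 0.0186). H2-Ob had 12.05, 12.01 and 12.27 in WT and 11.54, 11.75 and 11.67 in Zip13-KO (difference -0.46, SE 0.104, adjusted p = 0.0210). A further probe of H2-Ob differed by -0.34 without overlap between the genotypes, and its adjusted p over all kept probes missed the threshold. By the probe that stands for each gene, all 5 chains of this kind had an adjusted p under the threshold. The 4 A and E chains did not, a difference between the kinds that was not itself tested. Of all genes, 15.2% were lower at that adjusted p. The call of H2-DMa was lost under 11 and that of H2-DMb1 under 7 of the 20 alternatives, both under scaling to each array's 75th percentile, which left 1 class II gene called.

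Cd74, the invariant chain, had levels of 15.91, 16.38 and 16.02 in WT and of 15.66, 15.58 and 15.74 in Zip13-KO (difference -0.44, SE 0.135, limma adjusted p = 0.0481), which is short of the fold minimum. Ciita, the class II transactivator, had 8.38, 8.47 and 8.39 in WT and 7.68, 8.16 and 7.65 in Zip13-KO. It was called lower (difference -0.59, SE 0.149, adjusted p = 0.0284), and its estimate fell between -0.45 and -0.75 over the 20 alternatives, of which 12 took it off the list of calls. In bulk tissue, fewer cells of a type and less RNA per cell cannot be told apart, and this touches each of the class II values.

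**Figure D2:**
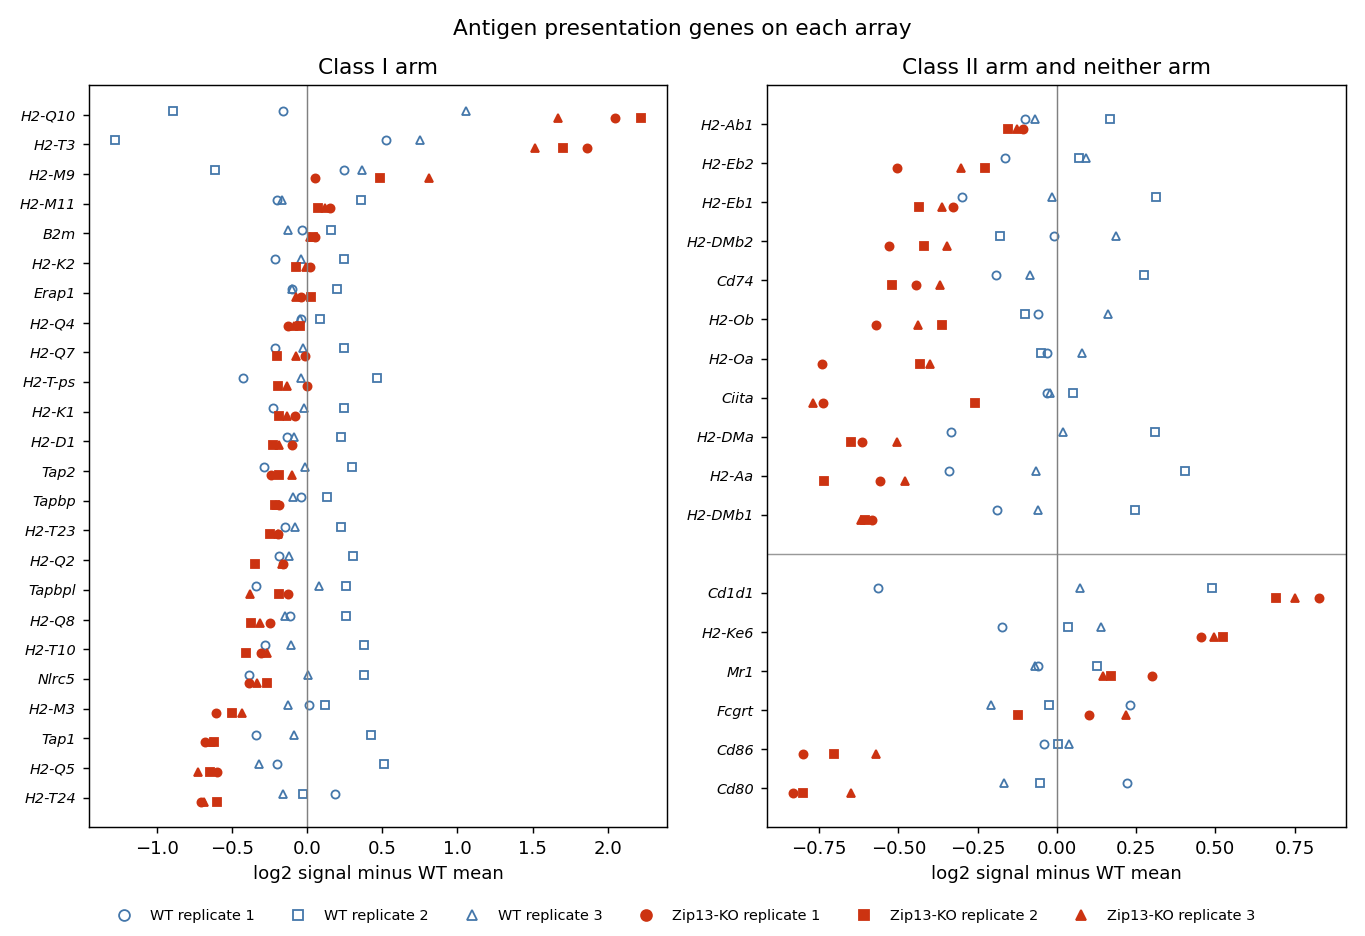
Log2 signal of each member on each array minus the WT mean of the gene (x axis), with WT arrays as open blue and Zip13-KO arrays as filled red symbols and 1 symbol shape for each replicate number; the panels hold the 24 class I genes and the 11 class II genes with the 6 genes of neither arm. For all 11 class II genes the red symbols lie left of the blue ones, while they overlap for 15 class I genes, and the open square of WT replicate 2 is the farthest right of the WT arrays for most.

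Genes of both classes share a promoter module of X and Y boxes, to which the RFX, CREB and NF-Y factors bind and through which CIITA and NLRC5 act. Its letters were looked for as TGANG, part of the X2 box, starting 24 to 27 bases before ATTGG, the core of the Y box, on either strand, in the 300 bases from 250 before to 50 after the start of transcription (RefSeq, GRCm38.p6). Promoters were listed for 35 of the 49 members. The module was found for 5 of 8 class II genes and 5 of 23 class I genes with a listed promoter, and for 1.35% of the 27025 genes in the table. ATTGG alone, or its complement, was found in 41.1% of those genes. The 10 stretches are shown because they hold members of both arms with the same module. Each is written 5′ to 3′ on the strand of the gene, with TGANG and ATTGG in capitals.
H2-Aa (chr17:34287857-34287917, minus strand): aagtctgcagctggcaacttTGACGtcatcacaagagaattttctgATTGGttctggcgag
H2-Eb1 (chr17:34305764-34305822, plus strand): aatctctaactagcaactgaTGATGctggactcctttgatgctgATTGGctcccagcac
H2-Eb2 (chr17:34325528-34325589, plus strand): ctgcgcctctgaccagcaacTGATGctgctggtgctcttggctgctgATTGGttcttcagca
H2-DMb1 (chr17:34153085-34153144, plus strand): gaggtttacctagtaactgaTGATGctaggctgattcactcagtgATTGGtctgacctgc
H2-DMb2 (chr17:34145114-34145173, plus strand): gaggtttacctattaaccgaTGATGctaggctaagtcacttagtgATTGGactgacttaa
H2-K1 (chr17:34000349-34000408, minus strand): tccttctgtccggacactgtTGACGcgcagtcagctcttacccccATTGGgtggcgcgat
H2-D1 (chr17:35262973-35263032, plus strand): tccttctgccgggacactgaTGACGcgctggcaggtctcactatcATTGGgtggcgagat
H2-Q7 (chr17:35439071-35439129, plus strand): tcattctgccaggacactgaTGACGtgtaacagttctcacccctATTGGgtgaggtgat
H2-M3 (chr17:37270168-37270227, plus strand): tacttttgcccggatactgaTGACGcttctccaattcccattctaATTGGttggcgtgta
B2m (chr2:122147589-122147648, plus strand): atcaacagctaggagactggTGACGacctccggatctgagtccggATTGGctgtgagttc

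H2-Eb1 and H2-Q7 each held a further TGANG that overlaps the one in capitals. The 5 class II genes with the module had differences from -0.60 to -0.34 with a median of -0.43, and the 5 class I genes with it from -0.51 to 0.04 with a median of -0.13. Of the 10 genes with the module, H2-DMb1 alone was called lower, beside 8.38% of all genes. The letters of the module were thus found in a member that was called lower and in members that were not. H2-Oa, H2-Ob and H2-DMa had ATTGG without TGANG at that distance in a listed promoter, and H2-Q10, H2-T3, Cd80, Fcgrt, Mr1, Erap1 and H2-M5 had neither ATTGG nor the module.

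The classical heavy chains carry most of the peptides of the class I arm. H2-K1 had levels of 16.81, 17.29 and 17.02 in WT and of 16.96, 16.85 and 16.91 in Zip13-KO (difference -0.13, 95% interval -0.45 to 0.19, limma adjusted p = 0.458). H2-D1 had 16.40, 16.76 and 16.44 in WT and 16.43, 16.30 and 16.35 in Zip13-KO (difference -0.17, 95% interval -0.45 to 0.11, adjusted p = 0.280). B2m, the light chain, had 16.28, 16.47 and 16.19 in WT and 16.37, 16.36 and 16.34 in Zip13-KO (difference 0.04, 95% interval -0.19 to 0.26, adjusted p = 0.770). The genotypes overlapped for all 3, and the intervals leave out a change of 1.5-fold in either direction. H2-K1 and B2m each changed sign under some of the alternatives without being called.

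All 5 genes of the peptide supply had estimates below 0, beside 7661 of all 15306 genes tested. Of these 5, 1 was called lower, beside 8.38% of all genes. WT replicate 2 was the highest WT array for each of the 5. Tap1, a chain of the TAP transporter, had levels of 9.95, 10.72 and 10.20 in WT and of 9.61, 9.67 and 9.65 in Zip13-KO and was called lower, by 1.57-fold (difference -0.65, SE 0.193, limma adjusted p = 0.0455). Without WT replicate 2 its difference was -0.44 and it was not called, and over the 20 alternatives 10 took it off the list of calls. Tap2, the other chain, had 13.72, 14.31 and 14.00 in WT and 13.77, 13.82 and 13.91 in Zip13-KO (difference -0.18, adjusted p = 0.405), with overlapping arrays. Tapbp, tapasin, which bridges the transporter and class I, had 12.90, 13.06 and 12.84 in WT and 12.74, 12.72 and 12.72 in Zip13-KO (difference -0.20, adjusted p = 0.106). Tapbpl, a relative of tapasin that edits peptides, had 10.005, 10.60 and 10.43 in WT and 10.22, 10.16 and 9.97 in Zip13-KO (difference -0.23, adjusted p = 0.318). Erap1, the aminopeptidase that trims peptides in the endoplasmic reticulum, had 7.55, 7.84 and 7.54 in WT and 7.61, 7.67 and 7.57 in Zip13-KO (difference -0.03, adjusted p = 0.859). Only the arrays of Tap1 and Tapbp were apart, in the lower direction, where 25.9% of all genes were so. Nlrc5, the class I transactivator, had 11.56, 12.32 and 11.96 in WT and 11.56, 11.68 and 11.62 in Zip13-KO (difference -0.33, 95% interval -0.79 to 0.14, adjusted p = 0.222). Its difference was -0.14 without WT replicate 2 and -0.53 without WT replicate 1. A dimmer probe of Nlrc5 differed by -0.54 (adjusted p over all kept probes 0.0683), with no overlap between the genotypes.

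The non-classical heavy chains spread more widely than the rest of the class I arm. H2-T24 had levels of 8.52, 8.31 and 8.17 in WT and of 7.63, 7.73 and 7.65 in Zip13-KO and was called lower, by 1.58-fold (difference -0.66, SE 0.107, limma adjusted p = 0.00924). The call was lost under 4 of the 20 alternatives: normexp background correction (-0.54), the deposited table (-0.58), the fit with slide position (-0.70) and without WT replicate 1 (-0.57). Its further probe differed by -0.76 (adjusted p over all kept probes 0.0106), in the same direction. H2-M3, which presents peptides that begin with formylated methionine, had 11.09, 11.19 and 10.95 in WT and 10.47, 10.58 and 10.65 in Zip13-KO (difference -0.51, SE 0.0951, adjusted p = 0.0125), which misses the fold minimum. H2-Q5, a transcribed pseudogene by the RefSeq annotation, had 12.51, 13.23 and 12.39 in WT and 12.11, 12.07 and 11.99 in Zip13-KO (difference -0.66, SE 0.221, adjusted p = 0.0629), and without WT replicate 2 it differed by -0.40.

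H2-Q10, a heavy chain secreted by the liver, was the only class I gene called higher. Its brightest probe had levels of 11.28, 10.55 and 12.49 in WT and of 13.49, 13.66 and 13.11 in Zip13-KO, a rise of 3.95-fold (difference 1.98, SE 0.481, limma adjusted p = 0.0252). The WT arrays spread over more than the gap of 0.62 that separated the genotypes. The other probe of the same transcript had 11.92, 12.28 and 12.21 in WT and 12.41, 12.47 and 12.24 in Zip13-KO (difference 0.24, adjusted p over all kept probes 0.198), and it overlapped between genotypes. Without Zip13-KO replicate 1 or 2 the other probe became the brightest, and the difference was 0.22 or 0.19. The call was also absent without WT replicate 1 and without Zip13-KO replicate 3, so that of the fits without an array it stood in those without WT replicate 2 or 3. Which probe reports H2-Q10 was not tested.

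H2-T3, the thymus leukaemia antigen, was not well above background on any WT array and was so on all 3 Zip13-KO arrays. It thus entered the test only through the genotype in which it was high, so neither its rise nor its p-value can serve as support. Its levels were 2.97, 1.17 and 3.20 in WT and 4.31, 4.15 and 3.96 in Zip13-KO, with a limma adjusted p of 0.0511 that misses the threshold. With the main processing, this bounds the signal at 1.84-fold higher or more in Zip13-KO. The bound does not carry over to other processing, where the difference went down to 0.26. The bound sets each WT array to the lowest normalized signal that was well above background on it, or to the probe's own value where that was higher. The remaining class I genes were not called: H2-T23, the Qa-1 chain, differed by -0.21, the transcribed pseudogene H2-T10 by -0.32, H2-Q8 by -0.31, H2-Q2 by -0.22, H2-T-ps by -0.11, H2-Q7, a Qa-2 chain, by -0.10, H2-Q4 by -0.09, the transcribed pseudogene H2-K2 by -0.02, H2-M11 by 0.12 and H2-M9 by 0.45. Heavy chain genes of the K, D, Q and T groups are close copies of each other, so a probe may also bind transcripts of its neighbours, and their values are not independent of each other.

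The brightest probes belonged mainly to class I. A mean level of at least 15 was reached by 9 of 24 class I genes, 3 of 11 class II genes and 321 of all genes tested, and of those 321 genes 2.18% were called lower and 15.3% higher. Of these 12 members, none was called. Whether brightness had a part in the values of the class I arm nearer to 0 was not tested.

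**Figure D3:**
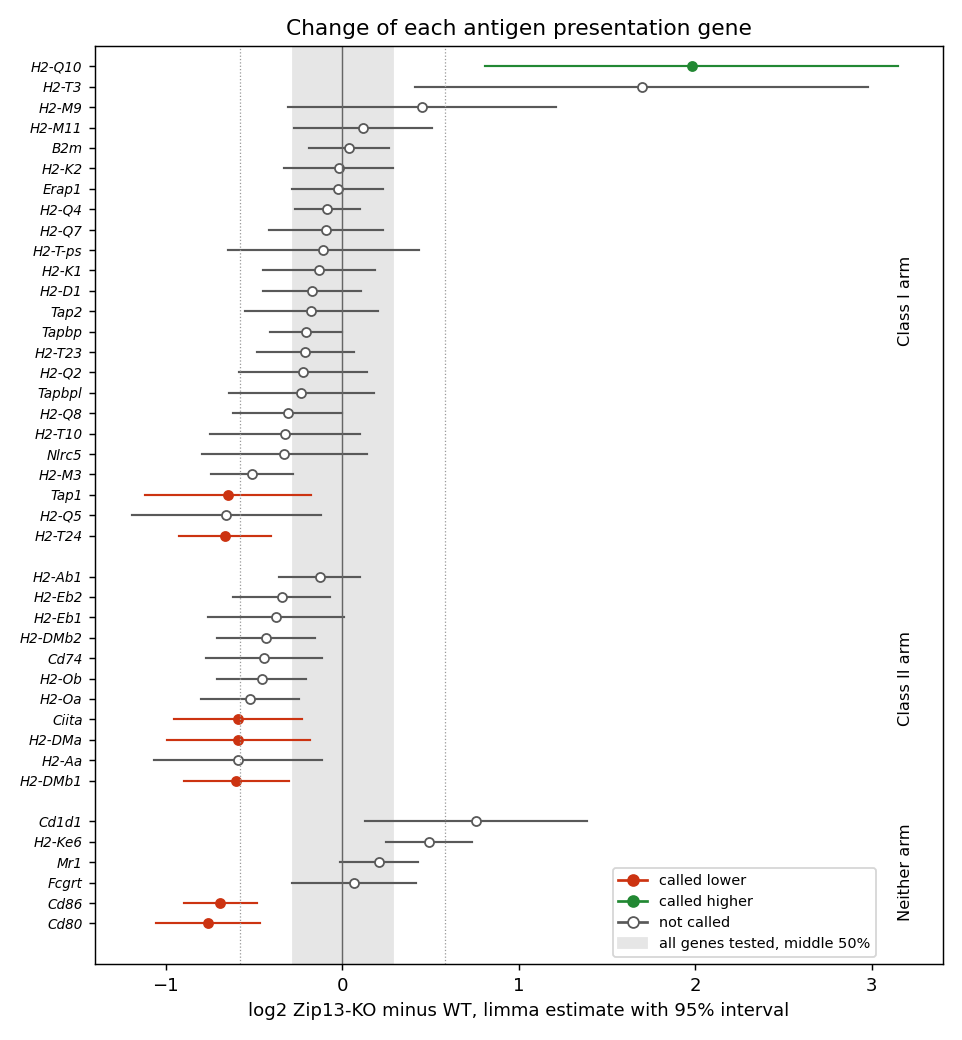
Difference of each member between Zip13-KO and WT (x axis, log2, limma estimate with its 95% interval), grouped by arm; filled points passed the threshold, dotted lines mark 0.58 in both directions and the grey band holds the middle 50% of all genes tested. The 11 class II estimates lie between -0.13 and -0.60, the class I estimates run from -0.66 to 1.98, and Cd80 and Cd86 lie at the low end.

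Among the members of neither arm, the ligands of CD28 fell. Cd80 had levels of 10.55, 10.28 and 10.16 in WT and of 9.50, 9.53 and 9.68 in Zip13-KO and was called lower, by 1.69-fold (difference -0.76, SE 0.122, limma adjusted p = 0.00909). A dimmer probe of Cd80 differed by -1.30 (adjusted p over all kept probes 0.0114). Cd86 had 10.47, 10.51 and 10.54 in WT and 9.70, 9.80 and 9.94 in Zip13-KO and was called lower, by 1.62-fold (difference -0.69, SE 0.0855, adjusted p = 0.00585). The genotypes were apart on both of these probes, with gaps of 0.48 and 0.53. A much dimmer probe, of a non-coding Cd86 transcript, differed by -0.90 and overlapped between the genotypes (adjusted p over all kept probes 0.154). That probe was well above background on all 3 WT arrays and on 0 Zip13-KO arrays. It thus passed the filter only through the genotype in which it was high, and its difference cannot serve as support. Each gene kept its call under 19 of 20 alternatives, the exception being the fit with the position on the slide, and these were the firmest calls among the members.

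The class I-like genes outside the complex had estimates above 0, and none was called. Cd1d1, which presents lipids to natural killer T cells, had levels of 12.999, 14.05 and 13.64 in WT and of 14.39, 14.25 and 14.31 in Zip13-KO (difference 0.76, SE 0.258, limma adjusted p = 0.0650). Every Zip13-KO array was above every WT array on this probe and on a further one with a difference of 0.85, and the gene was called without WT replicate 2 (1.01) and under scaling to the 75th percentile. Without WT replicate 1 its difference was 0.48. Mr1, which presents vitamin B metabolites of microbes, had 8.71, 8.90 and 8.70 in WT and 9.07, 8.94 and 8.91 in Zip13-KO (difference 0.21, 95% interval -0.02 to 0.43, adjusted p = 0.125). Fcgrt, the neonatal Fc receptor, had 13.48, 13.23 and 13.04 in WT and 13.35, 13.13 and 13.47 in Zip13-KO (difference 0.07, 95% interval -0.29 to 0.42, adjusted p = 0.745). H2-Ke6 encodes a steroid dehydrogenase and only lies within the complex. It had 12.66, 12.87 and 12.98 in WT and 13.29, 13.36 and 13.33 in Zip13-KO (difference 0.49, SE 0.0993, adjusted p = 0.0151), without reaching the fold minimum.

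Over all 41 members tested, 7 were called lower and 1 higher, where 8.38% and 10.3% of all genes were, and the median was -0.22. The genotypes were apart in the lower direction for 20 members and in the higher for 5, where 25.9% and 29.2% of all genes were. For every member whose arrays did not overlap, an exact two-sided permutation test gave p = 0.1, the smallest value that 3 against 3 arrays allow. Without WT replicate 2 or without Zip13-KO replicate 1, 3 members were called lower, and 4 without Zip13-KO replicate 2 or 3.

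Of 56 other genes of the same pathways, 51 were tested, 9 were called lower and none higher, beside 8.38% and 10.3% of all genes, and their median was -0.34. Among those of class II processing, 3 of 9 were called lower. Lgmn, legumain, an endosomal protease, had levels of 15.43, 14.56 and 14.65 in WT and of 13.03, 12.96 and 13.44 in Zip13-KO (difference -1.74, SE 0.263, limma adjusted p = 0.00816). Ctss, cathepsin S, which cuts the invariant chain, had 15.39, 15.02 and 15.02 in WT and 13.75, 13.80 and 13.99 in Zip13-KO (difference -1.30, SE 0.131, adjusted p = 0.00459). Ifi30, which reduces disulfides of antigens, had 13.14, 12.56 and 12.90 in WT and 11.79, 11.85 and 12.13 in Zip13-KO (difference -0.94, SE 0.172, adjusted p = 0.0120). Each of these 3 called genes fell by more than any class II chain did, while the list as a whole did not. Its median was -0.24, beside -0.46 for the class II arm, with 7 of 9 genes below 0. Ctsd differed by 0.17, Marchf8 by 0.04, Ctsb by -0.11, Marchf1 by -0.14, Sppl2a by -0.24 and Ctsl by -0.47.

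Among 17 regulators of MHC genes, 3 were called lower, beside 8.38% of all genes. They were Irf8 with -0.87, Ifngr2, a chain of the interferon-γ receptor, with -0.60, and Jak1, a kinase bound to that receptor, with -0.58. Irf8 had limma adjusted p = 0.00459 and the other two 0.00724. Rfx5 differed by -0.42 (adjusted p = 0.0390) and Rfxap by 0.36 (adjusted p = 0.0269), so subunits of the RFX factor went in opposite directions, both within 1.5-fold. Irf1 differed by -0.10 (adjusted p = 0.751). Of 11 tested genes of peptide production and loading none was called, and 3 passed the adjusted p below the fold minimum. They were Psmb10, a subunit of the immunoproteasome, with -0.44 (adjusted p = 0.0493), Psme1 with -0.36 (adjusted p = 0.0347) and Sec61b with -0.34 (adjusted p = 0.0348).

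Of the costimulation and checkpoint genes, 1 of 8 tested was called lower, near the 8.38% of all genes. It was Tnfsf9, the ligand of 4-1BB, with -0.75 (limma adjusted p = 0.0462). The median of the list was -0.57. With no minimum for the fold, 5 of 8 were lower, against 15.2% of all genes, and 6 were apart in the lower direction, against 25.9%. Of this list, Cd70 and Cd276 passed the filter only through the WT arrays. Cd40 differed by -0.45 (adjusted p = 0.0116), Pdcd1lg2 by -0.57 (adjusted p = 0.0129), Icam1 by -0.56 (adjusted p = 0.0148) and Icosl by -0.32 (adjusted p = 0.0404). All of these were short of the fold minimum. Cd274 differed by 0.21 (adjusted p = 0.297). Of the other class I-like genes, 2 of 6 tested were called, Ulbp1, a ligand of NKG2D, with -1.05 (adjusted p = 0.00408) and Procr, the protein C receptor, with -0.60 (adjusted p = 0.0229).

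Markers of cells known to carry class II were read beside these results. Over all genes tested, 8.38% were called lower, 10.3% were called higher and 25.9% were apart in the lower direction. Of 10 macrophage markers, 7 were called lower, none higher, and 8 were apart in the lower direction, with a median of -1.12. The log2 of their summed signal was 16.13 to 16.78 in WT and 15.14 to 15.45 in Zip13-KO. Cd68 differed by -1.87 (limma adjusted p = 0.00775) and Adgre1, which encodes F4/80, by -1.64 (adjusted p = 0.0110). Of 10 dendritic cell markers, 1 was called, Itgax with -0.86 (adjusted p = 0.0253), while Zbtb46 differed by -0.01, Siglech by -0.03 and Cd209a by 0.17. Of this list, 4 markers were apart in the lower direction. Its median was -0.53 and its summed signal was 15.59 to 15.75 in WT and 15.40 to 15.49 in Zip13-KO. Much of that sum came from Siglech, with levels of 14.97, 15.03 and 14.93 in WT and of 14.97, 14.95 and 14.91 in Zip13-KO. Xcr1, whose difference of -0.52 lies next to the median, passed the filter only through the WT arrays. Of 10 B cell markers, 1 was called, Pax5 with -0.61 (adjusted p = 0.00848), 9 were apart in the lower direction, and the median was -0.38. Their summed signal was 15.45 to 15.68 in WT and 15.09 to 15.25 in Zip13-KO. For the dendritic cell and the B cell list, the 1 call is close to the share of all genes called lower. These 3 lists were detected in full, on all 3 arrays of at least 1 genotype.

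**Figure D4:**
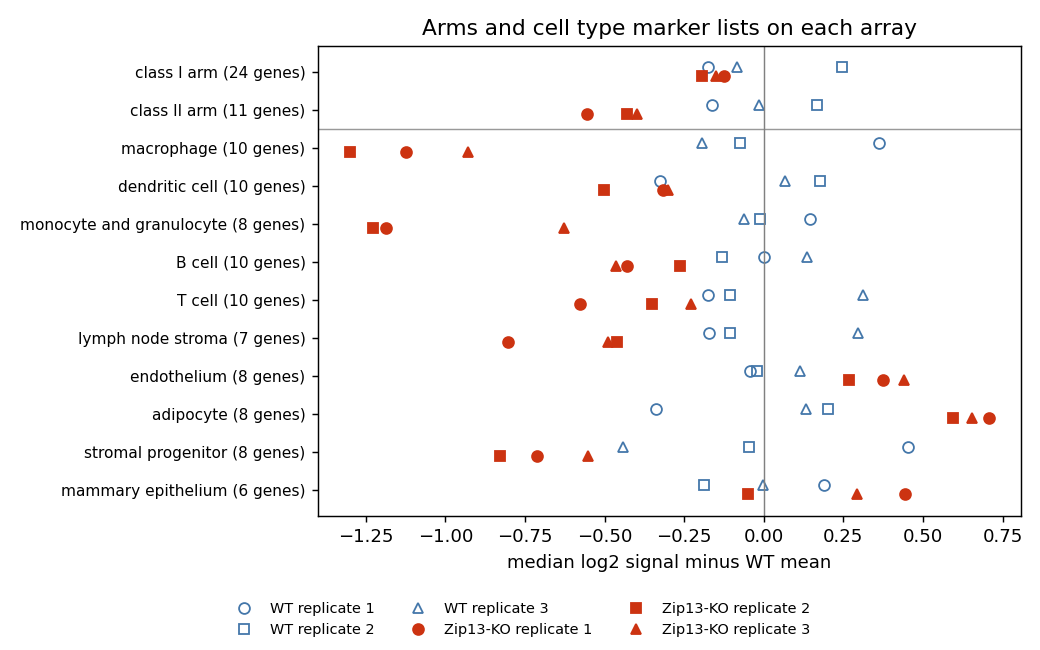
Median over each list of marker genes of the log2 signal minus the WT mean (x axis), on each array, with the class I and class II arms above the line; open blue symbols are WT arrays, filled red symbols Zip13-KO arrays, and shapes mark the replicate number. On the Zip13-KO arrays the macrophage list lies between -0.93 and -1.30 and the B cell list between -0.26 and -0.47, while adipocyte and endothelial lists lie above 0.

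Among the other lists, 4 of 8 tested markers of monocytes and granulocytes were called lower (median -1.22), 0 of 10 of T cells (median -0.38), 3 of 7 of lymph node stroma (median -0.63) and 3 of 8 of stromal progenitors (median -0.69). Of all genes, 8.38% were called lower and 10.3% higher. Adipocyte markers went the other way, with 3 of 8 called higher (median 0.65). So did endothelial markers by their median of 0.37, while the 1 of 8 called higher is close to the share of all genes. No mammary epithelial marker of 6 was called (median 0.32). Mmp8 of the monocyte and granulocyte list and Epcam of the mammary epithelial list passed the filter only through the WT arrays. The class II median of -0.46 lay below those of the B cell and the T cell lists, each -0.38. It lay above those of the dendritic cell (-0.53), lymph node stroma, stromal progenitor, macrophage (-1.12) and monocyte and granulocyte lists. The part of these cell types in the class II and costimulation results was not tested.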

How the data were processed

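iWAT RNA of 3 WT and 3 Zip13-KO samples was measured on 1-colour arrays. The authors deposited the scanner output (Feature Extraction 11.5.1.1), which gives each spot's processed signal intensity, corrected for background and not normalized between arrays. The table of log2 values that the authors deposited, quantile normalized from the uncorrected signal, was used as an alternative.

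Here, log2 processed signals without control and outlier spots were averaged per probe and quantile normalized. Of 55681 probes, 28331 were named through RefSeq accessions (GRCm38.p6), without versions. The array files annotate positions on an older assembly, which are not printed; the promoter coordinates are those of the RefSeq table. Among probes well above background on all 3 arrays of a genotype, the brightest stood for its gene (15306 genes). Genotypes were compared with limma 3.58.1 in R 4.3.3, adjusted by Benjamini-Hochberg over all genes, and called at an adjusted p under 0.05 and a log2 change beyond 0.58. The steps were tested on simulated data.

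Members and lists were chosen with earlier results of these data known. Every member is accounted for; values per array are given for the main genes of each arm and for every other member that was called or had the largest rise or fall of its arm, and pathway genes were named where called. Lgmn, Ctss and Ifi30 have values per array, and uncalled pathway and marker genes are named, by a choice made after their values were seen. Alternatives covered scaling, background correction, the deposited table, filters, a gene's probes, the test, thresholds, the replicate block, slide position and leaving out each array. Slide and scan were the same for all arrays and could not be tested. The number of arrays limits the precision.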

Additional observations from a re-analysis of the deposited data

How the results depend on the processing

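The lower level of Slc39a13 was called under all 20 alternatives, and all 11 class II genes were below 0 under each of them. Alternatives that change only the test, the thresholds, the filter or the replicate block leave the class II estimates as they were. They therefore add nothing on direction. The calls of members depended on the setting, as did those of all genes. Genes called lower numbered 1282 of 15306 in the main fit, 1212 under 75th percentile scaling and 1078 of 21365 without the filter. They numbered 721 by the methods' t-test after adjustment, 505 at an adjusted p under 0.01 and 2330 with no fold minimum. In the same order, genes called higher numbered 1576, 1768, 1376, 1007, 707 and 2951. With an array left out, 767 to 1475 were called lower and 955 to 1670 higher. Class II genes called lower numbered 1 under 75th percentile scaling, without the filter and by the methods' t-test after Benjamini-Hochberg adjustment, 0 at an adjusted p under 0.01 and with the array position as covariate, 7 with no fold minimum, and 0 to 3 with an array left out. Class I genes called lower numbered 1 without the filter, by the methods' t-test after adjustment and at an adjusted p under 0.01, 0 with the array position, and 1 to 2 with an array left out. Class I genes called higher numbered 0 without the filter, with the array position, by the methods' t-test after adjustment and at an adjusted p under 0.01, 2 with an intensity trend and robust prior, and 0 to 2 with an array left out. All members called lower numbered 4 without the filter and by the methods' t-test after adjustment, 3 at an adjusted p under 0.01, 12 with no fold minimum, 0 with the array position, and 3 to 6 with an array left out. All members called higher numbered 3 under 75th percentile scaling, 2 with the trend and with no fold minimum, 0 under the remaining settings named for class I, and 0 to 3 with an array left out. Pathway genes called lower numbered 20 with no fold minimum, 0 with the array position and 6 to 9 with an array left out, and pathway genes called higher 1 with no fold minimum. The class I median minus the class II median was 0.43 with the array position, which is the value of Zip13-KO replicate 1 alone. It was 0.23 to 0.38 with an array left out. With the array position hardly any gene was called, as given above. With the intensity trend, 1320 of all genes were called lower and 1597 higher. The cause of these changes was not tested.

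With the replicate number as a replicate block, 2 class II genes and 1 class I gene were called lower, and H2-DMa, Tap1 and H2-Q10 lost their calls. In that fit 0 class I genes and 0 members in all were called higher. Of all genes, 1051 were called lower and 1278 higher there. The deviations of same-numbered arrays correlated with r of -0.02, 0.04 and -0.08, and those of differently numbered arrays with r from -0.17 to 0.18. Such values cannot show whether same-numbered arrays are pairs, which the labels do not say. The arrays were not treated as pairs.

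No member that was called reversed. The 8 members that were not well above background were added without the filter, and none of them was called. Signal over background limits H2-T3, whose difference was 0.26 with normexp background correction and 0.38 in the deposited table. H2-T3 was among the class I genes called higher wherever 2 were so called.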
